A study of Danio rerio with 7 samples.

Results

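The finTRIM and TRIM35 genes of zebrafish were examined in PAC2 cells, a permanent cell line from wild-type zebrafish embryos. Members were all genes whose Ensembl name begins with ftr and a number or with trim35. This rule uses names alone, but the family was chosen with earlier results of these data known. Of 99 such names in the gene name table, 57 had a row among the 17570 genes of the count matrix, 45 finTRIM and 12 TRIM35 genes. The other 42 names (29 finTRIM and 13 TRIM35) were not analysed here. Poly-A RNA was sequenced from untreated cultures 8 days after seeding, in exponential growth (4 libraries, replicates 1 to 4), and 14 days after seeding, in stationary phase (3 libraries, replicates 1, 2 and 4). All cultures were wild-type, grew at 26 °C in the dark in L-15 medium with 5% fetal calf serum, and received fresh medium on day 7. The replicates were separate passages of this 1 cell line, begun on different days, so they do not stand for different fish. Day 8 cultures were therefore sampled soon after the medium change and day 14 cultures long after it, and growth phase, time in culture and age of the medium cannot be told apart.

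TRIM proteins combine a RING domain, which typically acts as an E3 ubiquitin ligase, with B-box and coiled-coil domains. Many also carry a C-terminal B30.2 domain that can bind other molecules. The finTRIM genes are a large group of TRIM genes of teleost fish, first found in trout cells exposed to virus, and in zebrafish many of them lie in tandem arrays of similar copies. Mammalian TRIM35 is known to act on antiviral signalling through IRF7, the transcription factor of type I interferon genes, whereas zebrafish carry many genes named after it. For most single copies no role is known well enough to be given here. An exception is *ftr83*, which in zebrafish is known to switch on interferon genes.

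The libraries held 11252559 to 33414743 estimated counts, and a single count corresponded to 0.0300 to 0.0773 CPM, the unit of all levels below (counts scaled to a common library size with the TMM method). Means are given with their SD over the 4 day 8 or the 3 day 14 libraries. CPM is not divided by transcript length, so a level below is a gene's share of a library and not a number of molecules relative to another gene. Of each library's counts, the 10 leading genes made up 7.86% to 8.55% on day 8 and 9.96% to 10.6% on day 14. Of 12 fibroblast and mesenchymal markers, 10 were matched to a row, with summed levels of 3548 to 6031 CPM on day 8 and 7691 to 8991 CPM on day 14. Of these, 7 were called higher, among them a gene listed as VIM at means of only 0.257 CPM on day 8 and 0.732 CPM on day 14. The day 8 level of VIM is too low for the matrix's filter on low values (0.49 CPM in 3 libraries). It thus needed day 14 libraries to pass, which favours a higher level there. Of 8 epithelial markers, 6 were matched to a row, at 1913 to 2897 CPM and 2137 to 2690 CPM, and 2 were called lower. Among all genes, 12.0% were called higher and 13.3% lower. Of 21 blood and immune cell markers, 3 (*spi1a*, *itgae.1* and a gene listed as SPI1) were matched to a row, together at 6.31 to 11.9 CPM on day 8 and 10.9 to 12.8 CPM on day 14, and none was called. No row was matched by name to *ptprc*, *lcp1* or *lyz*. These are bulk cultures, in which fewer cells of a type and less RNA per cell cannot be told apart, and the part of the marker changes in the results below was not tested.

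On day 14, 36 of the 57 members were higher and none was lower than on day 8 (edgeR's quasi-likelihood test over all genes, Benjamini-Hochberg adjusted p below 0.05). Of all genes tested, 12.0% were called higher and 13.3% lower, 25.3% in either direction. The higher calls comprised 30 of the 45 finTRIM genes and 6 of the 12 TRIM35 genes. The median fitted log2 difference of the members, day 14 minus day 8, was 1.15, against 0.00 for all genes, and the members ranged from −0.34 to 4.71. Of the 21 members that were not called, 16 had a positive and 5 a negative fitted difference, and at an unadjusted p below 0.05 edgeR counted 42 members higher and 1 lower, against 18.1% and 19.3% of all genes. DESeq2 called 1 member lower, *ftr82*, and 15.4% of all genes. In 42 members every day 14 library lay above every day 8 library, a pattern that 17.1% of all genes showed, and in 1 member every day 14 library lay below, as in 17.7% of all genes. Of the 57 members, 45 were higher on day 14 in each of the 3 pairs of libraries with the same replicate number, as were 31.5% of all genes. The matrix had been filtered on low values, and 13 members, 10 of them called, would have passed that filter only through the day 14 libraries. Their presence in the matrix thus favoured a higher level on day 14, without strictly fixing it. Of the 43 members that pass on the day 8 libraries alone, 26 were called higher and none lower, with a median log2 difference of 0.90. Without day 14 replicate 2, 19 finTRIM genes were called higher, and the share of all genes fell to 7.3%. Without day 14 replicate 4, 2 TRIM35 genes were called higher, and the share of all genes fell to 7.32%. With library totals in place of TMM scaling 26 members were higher and 1 lower (6.93% and 18.5% of all genes). Of all called genes, 27.2% instead of 47.3% were then higher.

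**Figure D1:**
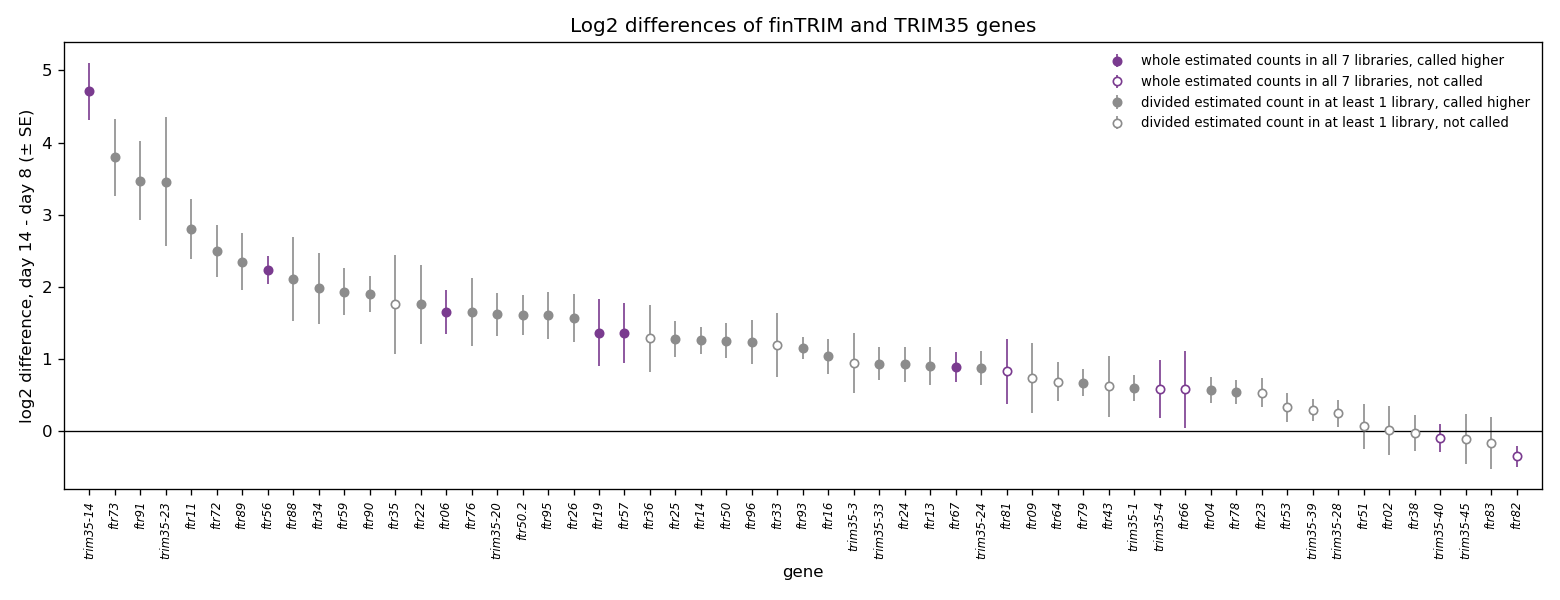
Fitted log2 difference, day 14 minus day 8, of each of the 57 members (vertical axis, points with SE as bars), ordered by size along the horizontal axis. Filled points were called higher, open points were not called, and purple marks the 11 members whose estimated counts were whole numbers in every library. The values fall from 4.71 in *trim35-14* to −0.34 in *ftr82*, and filled purple points stand among the filled grey ones.

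A single gene, *ftr82* (ENSDARG00000055647), supplied most of the family's reads on day 8. Its level was 209, 231, 240 and 260 CPM in day 8 replicates 1 to 4 and 197, 186 and 173 CPM in day 14 replicates 1, 2 and 4. Every day 14 library was thus below every day 8 library. The difference of the means, −49.8 CPM, was in CPM the largest of any member (the next was 31.0 CPM, in *ftr56*), while its fold difference was small. The means were 235 ± 21.2 CPM and 185 ± 12.0 CPM, a log2 difference of −0.34 with an SE of 0.15 (edgeR adjusted p = 0.105, not called). It passed the threshold with the replicate number as a block (edgeR adjusted p = 0.0455), with library totals and with DESeq2, and over 17 alternatives its adjusted p ran from 0.0238 to 0.278. The share of *ftr82* in the members' summed CPM was 52.4% on day 8 and 30.6% on day 14. No other member exceeded 27.5 CPM on day 8 or 49.4 CPM on day 14.

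The summed level of all 57 members was 411, 427, 464 and 494 CPM in the day 8 libraries and 557, 657 and 601 CPM in the day 14 libraries. The groups did not overlap, and the means of 449 ± 37.1 CPM and 605 ± 49.8 CPM gave a ratio of 1.35. Without *ftr82* the sum of the other 56 members was 202, 197, 224 and 233 CPM on day 8 and 360, 471 and 428 CPM on day 14. This sum was 1.96 times as high on day 14, so the total understated the change of the remaining copies. Both sums include the 13 members that passed the filter only through day 14 and were not split by the filter. The finTRIM genes without *ftr82* summed to 138 ± 10.6 CPM on day 8 and 309 ± 44.9 CPM on day 14, a ratio of 2.25. The TRIM35 genes summed to 76.2 ± 7.18 CPM and 111 ± 14.1 CPM, a ratio of 1.45. Day 14 replicate 2 held the highest day 14 value of 30 members, replicate 4 of 19 and replicate 1 of 8.

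**Figure D2:**
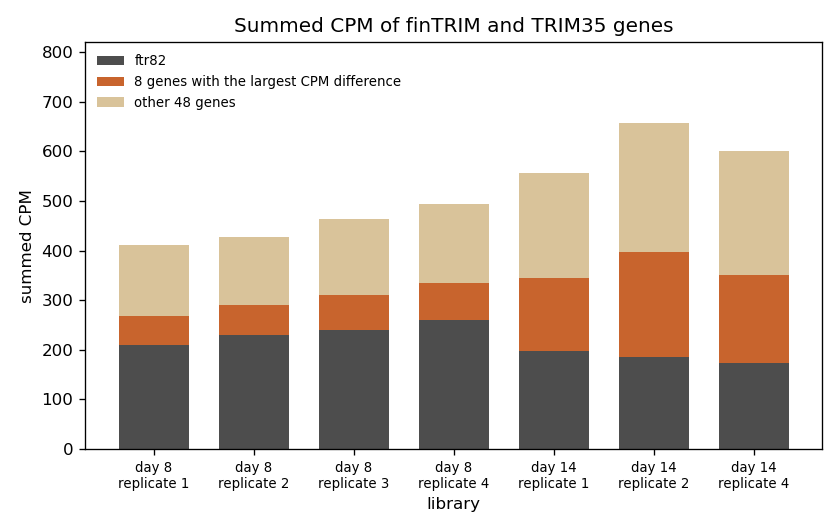
Summed CPM of the 57 members in each of the 7 libraries (one stacked bar per library, vertical axis from 0), split into *ftr82*, the 8 genes with the largest difference in mean CPM and the other 48 genes. The *ftr82* part is 209 to 260 CPM on day 8 and 173 to 197 CPM on day 14, while the part of the 8 genes is 59.5 to 73.5 CPM and 147 to 211 CPM.

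The 8 genes with the largest differences in mean CPM carried 54.3% of the summed rises of the 51 members whose mean was higher on day 14. Together they went from 66.0 ± 7.45 CPM to 178.7 ± 32.0 CPM. They were chosen by this difference, so their share is a description. It includes *trim35-14*, which passed the filter on low values only through the day 14 libraries. The other 48 members apart from *ftr82* went from 148 ± 10.2 CPM to 241 ± 24.7 CPM, and the increase was therefore not restricted to those 8 genes.

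Of the 8, *ftr56* (ENSDARG00000030954) alone made 15.0% of the summed rises. Its level was 7.49, 7.28, 9.57 and 9.12 CPM on day 8 and 30.5, 49.4 and 38.3 CPM on day 14. The lowest day 14 library was far above the highest day 8 library, with a log2 difference of 2.23 and an SE of 0.19 (edgeR adjusted p = 4.13e-05). *ftr93* (ENSDARG00000039852), at 15.3, 15.7, 19.0 and 17.4 CPM on day 8 and 32.2, 40.3 and 40.2 CPM on day 14, contributed 9.98%. Its replicates lay close together within each day, and its log2 difference was 1.15 with an SE of 0.15 (edgeR adjusted p = 0.000381). *ftr90* (ENSDARG00000097373) had 5.87, 5.21, 5.65 and 3.37 CPM on day 8 and 18.9, 24.5 and 12.5 CPM on day 14. Day 14 replicate 4 was the lowest of its day here, still above all day 8 libraries, and the log2 difference was 1.90 with an SE of 0.25 (edgeR adjusted p = 0.000362).

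*ftr67* (ENSDARG00000098820) had 11.1, 11.9, 18.6 and 17.5 CPM on day 8 and 22.8, 31.5 and 27.8 CPM on day 14. Day 8 replicates 3 and 4 stood above replicates 1 and 2 but below every day 14 library, and the log2 difference was 0.89 with an SE of 0.21 (edgeR adjusted p = 0.00845). *ftr14* (ENSDARG00000053293) had 8.34, 6.46, 7.01 and 7.89 CPM on day 8 and 14.4, 21.7 and 17.2 CPM on day 14, again without overlap, with a log2 difference of 1.26 and an SE of 0.18 (edgeR adjusted p = 0.000642). *trim35-20* (ENSDARG00000070847) varied more on day 8, at 2.24, 3.29, 5.71 and 5.54 CPM, than *ftr14* did, and reached 9.83, 16.0 and 13.3 CPM on day 14. It was called with a log2 difference of 1.62 and an SE of 0.29 (edgeR adjusted p = 0.00204). *ftr24* (ENSDARG00000008396) was the least certain of the 8, at 8.96, 9.46, 5.54 and 12.5 CPM on day 8 and 13.8, 17.7 and 20.9 CPM on day 14. Its log2 difference was 0.93 with an SE of 0.24 (edgeR adjusted p = 0.0154), and its call was lost without day 14 replicate 2 (0.0558), without day 14 replicate 4 (0.0844) and with library totals (0.0685), within a range of 0.00107 to 0.0844 over 17 alternatives.

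The copies with the largest fold changes were mostly near the detection limit on day 8. Of these, *trim35-14*, *ftr73*, *ftr91*, *ftr11*, *ftr89* and *trim35-23* passed the filter only through the day 14 libraries. Their presence in the matrix thus favoured a higher level on day 14, and their values are given as a description. *trim35-14* (ENSDARG00000025601), the remaining gene of the 8, had the largest log2 difference of all members. It was at 0.541, 0.222, 0.272 and 0.171 CPM on day 8 and at 4.47, 9.79 and 8.14 CPM on day 14. The means were 0.301 ± 0.165 CPM and 7.47 ± 2.73 CPM, a log2 difference of 4.71 with an SE of 0.40 (edgeR adjusted p = 4.05e-05). Its estimated counts were whole numbers in every library, that is, no fraction of a fragment was assigned to it.

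*ftr73* (ENSDARG00000095298), *ftr72* (ENSDARG00000026704) and *ftr91* (ENSDARG00000098004) are neighbours in 1 array. *ftr73* was at 0.695, 0.185, 0.272 and 0.0426 CPM on day 8 and 3.87, 4.37 and 2.93 CPM on day 14, a log2 difference of 3.79 with an SE of 0.53 (edgeR adjusted p = 0.000488). *ftr72* was at 0.618, 0.961, 1.41 and 1.19 CPM and then at 4.71, 9.62 and 3.88 CPM, a log2 difference of 2.50 with an SE of 0.36 (edgeR adjusted p = 0.000575). *ftr91* was at 0.850, 0.0369, 0.435 and 0.512 CPM and then at 4.11, 6.53 and 3.62 CPM, a log2 difference of 3.47 with an SE of 0.55 (edgeR adjusted p = 0.00113). In *ftr72*, which passes the filter on day 8 alone, every day 14 library lay above every day 8 library, as in 17.1% of all genes. The days did not overlap in *ftr73* and *ftr91* either, but these passed only through day 14, which favours such a gap. Single day 8 libraries rested on very few counts. With the replicate number as a block *ftr91* was not called (log2 difference 3.53, edgeR adjusted p = 0.0589, the highest of 17 alternatives, which began at 2.53e-09).

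*ftr11* (ENSDARG00000038646) was at 0.618, 0.369, 0.272 and 0.426 CPM on day 8 and 3.09, 4.08 and 1.54 CPM on day 14, a log2 difference of 2.80 with an SE of 0.41 (edgeR adjusted p = 0.00065). *ftr89* (ENSDARG00000040536) was at 0.386, 0.406, 1.14 and 0.426 CPM and then at 3.27, 3.26 and 2.50 CPM, a log2 difference of 2.35 with an SE of 0.40 (edgeR adjusted p = 0.00142). Day 8 replicate 3 stood apart from the other day 8 libraries for *ftr89* and was still below every day 14 library. *trim35-23* (ENSDARG00000102368) had no count in day 8 replicates 1, 3 and 4, 0.369 CPM in replicate 2, and 0.659, 1.28 and 2.02 CPM on day 14. Its log2 difference of 3.46 had an SE of 0.90 (edgeR adjusted p = 0.0153), rests on day 8 libraries with almost no counts, and was 7.76 without day 8 replicate 2. The call was lost without day 14 replicate 4 (0.0735) and with DESeq2 (0.103), the highest of 17 adjusted p-values, which began at 0.0017.

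Several of the more abundant copies were not called, among them 3 TRIM35 genes. *trim35-40* (ENSDARG00000042116) was at 16.8, 19.0, 27.3 and 27.5 CPM on day 8 and 19.2, 21.1 and 23.6 CPM on day 14, so the day 14 libraries lay within the day 8 range. Its log2 difference was −0.09 with an SE of 0.20 (edgeR adjusted p = 0.775), and the sign turned under 3 of 17 alternatives. *trim35-39* (ENSDARG00000071241) was at 15.4, 17.6, 19.2 and 16.4 CPM and then at 20.2, 23.4 and 19.7 CPM, without overlap but with a log2 difference of only 0.30 and an SE of 0.15 (edgeR adjusted p = 0.177). *trim35-28* (ENSDARG00000021021) was at 15.7, 14.2, 12.4 and 15.6 CPM and then at 14.4, 15.0 and 22.3 CPM, a log2 difference of 0.25 with an SE of 0.19 (edgeR adjusted p = 0.361). Day 14 replicate 4 alone was high for *trim35-28*, and the other libraries of both days overlapped.

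The interferon-inducing *ftr83* (ENSDARG00000025403) had low levels on both days, at 1.31, 1.59, 2.23 and 3.24 CPM on day 8 and 2.01, 1.28 and 2.34 CPM on day 14. The days overlapped, and the log2 difference was −0.16 with an SE of 0.36 (edgeR adjusted p = 0.777). Its sign turned without day 8 replicate 4 (0.13) and without day 14 replicate 2 (0.04). All estimated counts of *ftr83* were divided ones, so part of its level depends on how fragments shared with other genes were assigned.

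Of the 38 members not described singly so far, 22 were called higher (12.0% of all genes were), with log2 differences of 0.54 to 2.11. Of the 22, *ftr19*, *ftr22*, *ftr34* and *ftr88* had passed the filter only through day 14, which favours a higher level there. The largest difference, 2.11, and the lowest day 8 mean, 0.226 CPM, were those of *ftr88*. The mean levels of the 22 ran from 0.226 to 10.4 CPM on day 8 and from 0.83 to 15.5 CPM on day 14. The highest of them on both days, *ftr04* at 10.4 and 15.5 CPM, had a log2 difference of 0.57 with an SE of 0.18 (edgeR adjusted p = 0.0372). The other 16 were not called, with fitted log2 differences of −0.11 (*trim35-45*) to 1.76 (*ftr35*). *ftr35*, with a mean of 0.827 ± 0.670 CPM on day 8 and 2.75 ± 0.446 CPM on day 14, had no count in 1 day 8 library (edgeR adjusted p = 0.0893). For *ftr02*, *ftr38*, *ftr51* and *trim35-45* the fitted differences were within 0.11 of 0 on the log2 scale, and their signs turned under 1 or more of the 17 alternatives, *ftr02* and *ftr51* with library totals and *ftr38* with upper-quartile scaling.

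Taking a mean of 1 CPM as the mark of an expressed copy, 35 members passed on both days, 18 on day 14 only, 1 (*trim35-45*) on day 8 only and 3 on neither. Most of the 18, among them *ftr11*, *ftr73*, *ftr89* and *ftr91*, had passed the filter on low values only through the day 14 libraries. The filter thus favoured this imbalance, and the split is given as a description. How many of all genes passed the mark on a single day was not tested. Averaged over all libraries, 11 members were above 10 CPM, 34 between 1 and 10 CPM and 12 at or below 1 CPM. Of these, 7, 24 and 5 were called higher, against 12.0% of all genes. All 5 called at or below 1 CPM had passed the filter only through day 14, which favours a higher level there. Their calls thus cannot show whether the rise reaches copies at this level. Of the 24, *ftr11*, *ftr73*, *ftr89*, *ftr91* and *trim35-14* had also passed only through day 14.

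**Figure D3:**
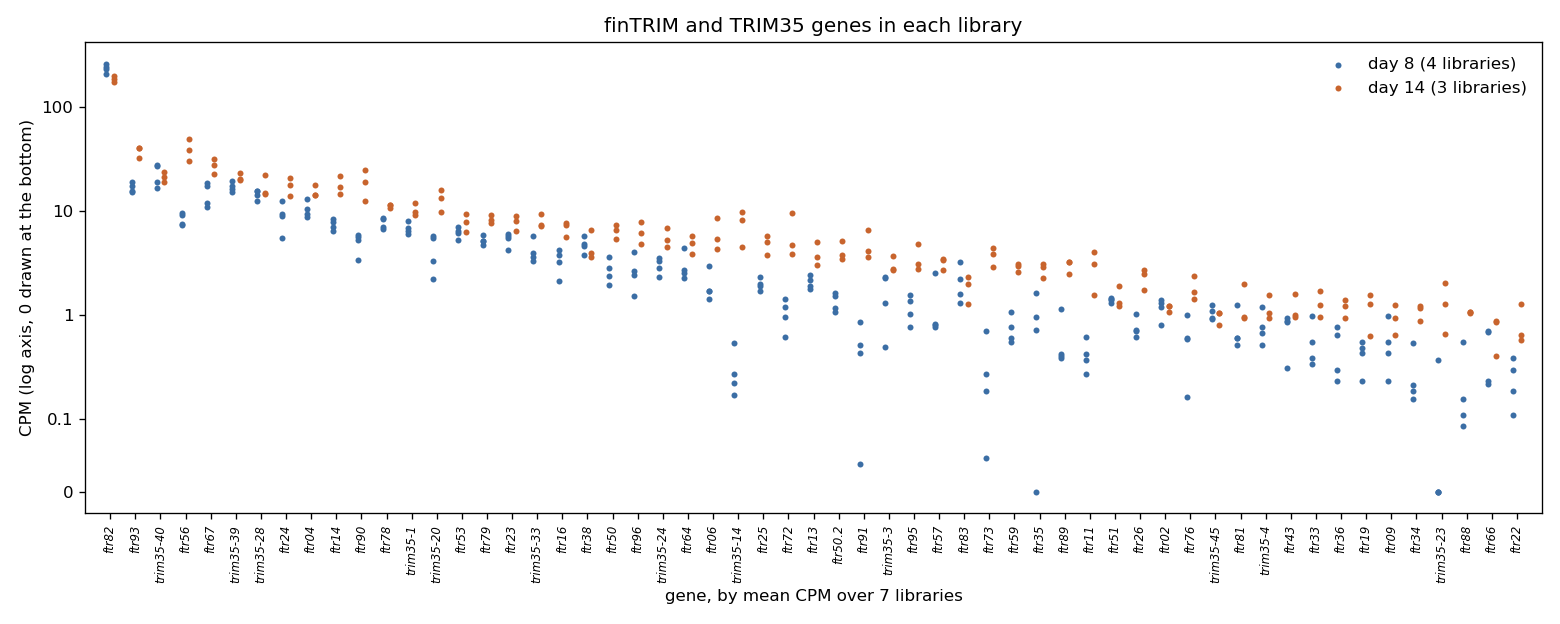
CPM of each of the 57 members in every library (log axis, 0 drawn at the bottom; blue, 4 day 8 libraries; orange, 3 day 14 libraries), ordered by mean CPM over the 7 libraries. *ftr82* stands above all other copies on both days, and wide gaps between the days are seen in *trim35-14*, *ftr73* and *ftr91*, which passed the filter on low values only through day 14.

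Similar copies share fragments, and the counting step divides such fragments between genes as fractions. A whole estimated count (within 0.001) therefore marks a gene to which no fraction of a fragment was assigned in that library. A count of 0 is whole too, and a whole count does not show that none of the gene's fragments also fit another copy. Of the 57 members, 11 had whole counts in all 7 libraries (*ftr82*, *ftr56*, *ftr67*, *ftr06*, *ftr19*, *ftr57*, *ftr66*, *ftr81*, *trim35-4*, *trim35-14* and *trim35-40*), as did 43.0% of all genes, and 27 members had divided counts in every library. Of the 11, 6 were called higher (*ftr56*, *ftr67*, *ftr06*, *ftr19*, *ftr57* and *trim35-14*) and none lower, against 12.0% and 13.3% of all genes. The median log2 difference of the 11 was 0.89. Of the 6, *ftr19* and *trim35-14* had passed the filter only through day 14. The 11 summed to 287 ± 31.0 CPM on day 8 and 294 ± 17.2 CPM on day 14, a ratio of 1.03, with *ftr82* as the largest part. Their sum without *ftr82* was 51.7 ± 11.5 CPM on day 8 and 109 ± 20.3 CPM on day 14, a ratio of 2.11. The 46 members with a divided count in at least 1 library summed to 162 ± 8.66 CPM and 310 ± 35.7 CPM, a ratio of 1.91, and 30 of them were called higher. Calls were thus also made in copies with whole counts in every library, but the sum of all such copies differed by less than its spread. For single members with divided counts, such as *ftr72*, *ftr73*, *ftr89* and *trim35-20* (divided in every library), the level of the copy is uncertain. Fragments divided between the 57 members leave their sum as it is. Those divided with other genes, among them copies of the 42 family names not analysed here, do not. How many there were of each was not tested.

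In the RefSeq gene order (assembly GRCz12tu, which is not the build of the counts), 48 of the 57 members were found. Counting members as neighbours when at most 3 other protein-coding genes lay between them, 28 formed 9 runs of 2 or more, and 20 lay outside any run. In runs 17 of 28 members were called higher (11 of the 20 that pass the filter on day 8 alone). Outside runs 12 of 20 were called higher, a count not split by the filter that includes *trim35-14*, which passed only through day 14. Of all genes, 12.0% were called higher. The run with *ftr76*, *ftr88*, *ftr73*, *ftr72* and *ftr91* had all 5 members called, with log2 differences of 1.65 to 3.79. However, *ftr88*, *ftr73* and *ftr91* had passed the filter only through the day 14 libraries, which favoured a higher level there. This leaves *ftr76* and *ftr72* as the called members that pass on day 8 alone. The run's summed level was 3.32, 2.33, 2.39 and 2.43 CPM on day 8 and 15.4, 24.0 and 12.9 CPM on day 14, a ratio of 6.66, which includes *ftr88*, *ftr73* and *ftr91*. A sum is not altered by fragments divided within the run.

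Other runs held members with unlike differences. The longest, with *ftr38*, *ftr36*, *ftr35*, *ftr34*, *ftr33* and *ftr95* in the matrix, had 2 called members. Its log2 differences ran from −0.02 in *ftr38* to 1.98 in *ftr34*. Of its members, *ftr36*, *ftr33* and the called *ftr34* had passed the filter only through day 14, which favours a higher level there. *ftr02* and *ftr06*, the matrix members of another run, had log2 differences of 0.01 and 1.65, and *ftr59* and *trim35-39*, of a further run, of 1.94 and 0.30. In the run of *ftr22*, *ftr23*, *ftr24* and *ftr26*, 3 of 4 were called, and in those of *ftr13* with *ftr14* and of *trim35-24* with *trim35-23* both members were. Of the called members here, *ftr22* and *trim35-23* had passed the filter only through day 14. *ftr82* and *ftr83* formed a run in which neither was called. The differences between neighbours were not themselves tested.

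**Figure D4:**
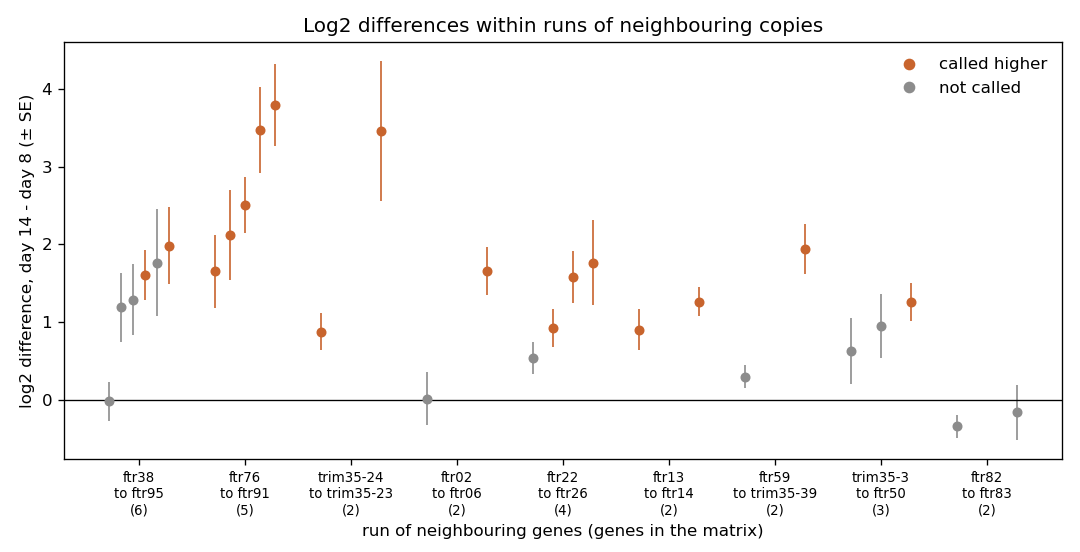
Fitted log2 difference, day 14 minus day 8, of the 28 members in 9 runs of neighbouring genes (vertical axis, points with SE as bars; orange, called higher; grey, not called), ordered by size within each run, with the number of members in the matrix in parentheses. All 5 points of the run from *ftr76* to *ftr91* lie at 1.65 or above, and both points of the run of *ftr82* and *ftr83* lie below 0. Of those 5, *ftr88*, *ftr73* and *ftr91* passed the filter on low values only through day 14.

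The antiviral pathway that several TRIM proteins act in was read from lists of genes. Of 12 names of RIG-I-like receptor signalling, which senses viral RNA, 8 were matched to a row. Of these, 5 were called higher and none lower (12.0% and 13.3% of all genes), and the median log2 difference was 0.48. *irf7* went from a mean of 11.7 to 50.2 CPM and *dhx58*, a receptor of this group, from 2.51 to 22.5 CPM. Of 15 names from the interferon receptor to transcription, 13 were matched to a row and 10 were higher, none lower, with a median of 1.00. Here *stat2*, a transcription factor activated by interferon receptors, went from 35.6 to 242 CPM.

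Of 29 interferon effectors, 26 were matched to a row, 23 were higher and 1 lower (12.0% and 13.3% of all genes), with a median log2 difference of 2.12. Among those called higher, *ifi44a8*, *ifit10*, *mxc*, *mxb*, *ifit8* and *ifit14* had day 8 means below the filter's 0.49 CPM. For *ifi44a8*, *ifit10*, *mxc* and *mxb* these means, at most 0.264 CPM, are too low for 3 day 8 libraries to reach that value. They thus needed day 14 libraries to pass, which favours a higher level there. For *ifit8* and *ifit14* this was not tested. The calls and large differences of all these genes enter the count and the median. The gene called lower was *samhd1*, a nucleotide hydrolase, from a mean of 22.9 to 5.31 CPM. The summed effectors ranged from 865 to 1313 CPM on day 8 and from 1556 to 2343 CPM on day 14, and most of the day 8 sum was *b2m*, the light chain of MHC class I, at a mean of 789 CPM on day 8 and 1047 CPM on day 14 and not called (edgeR adjusted p = 0.227). Without *b2m* the sums were 228 to 321 CPM and 756 to 1229 CPM, and the days did not overlap.

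The 30 other TRIM genes in the matrix had 7 higher and none lower, with a median log2 difference of 0.36. Among them *trim25*, a ubiquitin ligase known in mammals for its action on RIG-I, went from 68.2 to 117 CPM. The 15 bloodthirsty-related genes, a further TRIM group expanded in fish, had 3 higher and 1 lower, with a median of 0.10. The lower one, *btr02*, went from a mean of 0.563 to 0.0749 CPM. Its day 14 level is too low for the filter, so it needed day 8 libraries to pass, which favours a lower level on day 14. The shares called higher were 23.3% and 20.0% in these groups, 63.2% in the finTRIM and TRIM35 genes and 12.0% in all genes, and no test between the groups was made. Of the 43 finTRIM and TRIM35 genes that pass the filter on the day 8 libraries alone, 60.5% were called higher. The other groups were not split in this way.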

How the data were processed

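The authors pseudo-aligned reads from a stranded poly-A kit to the Ensembl GRCz11 transcriptome with Kallisto, added the estimated counts up per gene and filtered out barely expressed genes in edgeR (4.6.2 in the submitters' notes). The deposited values are estimated counts, not normalized, for 17570 genes. No transcript lengths or protein sequences were used here.

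After rounding, the counts entered edgeR 4.0.16 under R 4.3.3 (TMM, estimateDisp, robust glmQLFit, glmQLFTest), with growth phase as the only term, as in the study. Benjamini-Hochberg adjustment was over all genes at 0.05. The older quasi-likelihood form of glmQLFit was used, and the study's methods do not name the form. The newer form, an alternative, called 38 members higher (12.5% of all genes). The scripts were tested on simulated data. SEs were computed as the log2 difference divided by the root of F. DESeq2 1.42.0 and limma 3.58.1 served as alternatives. Figures used Python 3.11.15 and matplotlib 3.10.9.

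The members, lists and tests were chosen with earlier results of these data known. Members described singly were the 8 with the highest mean CPM, the 8 called rises with the largest log2 difference and a day 14 mean above 1 CPM, the 8 with the largest difference in mean CPM, any called lower (none), and *ftr67*, *ftr82*, *ftr83* and *ftr84*, of which *ftr84* was not analysed here. Other members named were chosen after their values were seen. The filter was taken as 0.49 CPM of library totals in 3 libraries. In the lists, names were matched ignoring case, and 7 genes that the name table gives only by an upper-case symbol without the final a or b of the listed name (such as PSMB8 for *psmb8a*) were matched to that symbol, so which copy such a gene is was not settled. A symbol was known for 15073 of the 17570 genes, so a listed name without a match can still have a row.

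Replicate numbers mark passages begun on different days, so they pair libraries by design. Deviations of same-numbered libraries correlated at 0.30 (replicate 1), −0.12 (replicate 2) and 0.38 (replicate 4) across genes, and those of different numbers at −0.33 to 0.34. No 2 libraries of a day agreed within counting noise (chi-square per degree of freedom of at least 14.8).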

Additional observations from a re-analysis of the deposited data

Results flagged for a closer look

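In 21 day 8 groups of 4 libraries, 1 library stood apart from the others in 2, and chance gives about 1 in 20. For *ftr89* day 8 replicate 3 was at 1.14 CPM, against 0.386, 0.406 and 0.426 CPM in the other 3 libraries. For *trim35-23* day 8 replicate 2 was at 0.369 CPM, and the other 3 libraries had no count. Any count in that library would have stood apart, so the rate of 1 in 20 does not apply to *trim35-23*. The day 14 groups of 3 were too small for this comparison.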

How the results depend on the processing

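Across 17 alternative fits, 20 of the 36 members were called higher in every one, and the number of members called higher ran from 24 to 39. The share of all genes called higher ran from 6.93% (library totals) to 17.7% (replicate block). How many of all genes were called higher in every fit was not tested. With library totals the median of all genes shifted by −0.175 (log2), and 26 members were higher and 1 lower (6.93% and 18.5% of all genes). The members' median was then 0.98 and the ratio of summed CPM 1.19. With upper-quartile scaling 38 members were higher (14.2% of all genes), and 55.6% of all called genes were. DESeq2 called 36 higher and 1 lower (13.3% and 15.4% of all genes). The median was 0.72 with limma on log2(CPM + 1) and 1.02 on log2(CPM + 0.25), scales that shrink low genes. Leaving out *ftr82* the ratio was 1.96. Among the 11 members with whole counts, an alternative chosen after seeing the data, 6 were higher (12.0% of all genes in the reported fit). Their median was 0.89 and their ratio 1.03.

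With the replicate number as a block 38 members were higher, 34 of them shared with the unblocked fit, and 1 (*ftr82*) lower (17.7% and 18.9% of all genes), with a median of 1.22 and a ratio of 1.36. The block ended the calls of *ftr22* and *ftr91*, added *ftr23*, *ftr33*, *ftr35* and *ftr36*, and turned *trim35-40* to 0.039.

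Leaving out each library gave 24 to 36 members, 19 to 30 finTRIM and 2 to 6 TRIM35 genes higher, against 7.3% to 13.2% of all genes. The medians were 1.03 to 1.22 and the ratios 1.29 to 1.40. The members called higher fell to 24 without day 14 replicate 2 or 4, where 7.3% and 7.32% of all genes were. *trim35-40* ran from −0.206 (without day 8 replicate 1) to 0.017 (replicate 4), and was 0.016 without replicate 3. *ftr83* ran from −0.334 (without day 14 replicate 4) to 0.133 (day 8 replicate 4), and was 0.044 without day 14 replicate 2. The cause of these changes was not tested.

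The planned grouping by protein identity was not run. With 3 and 4 libraries, and 1 count worth up to 0.0773 CPM, members below 1 CPM rest on few counts.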
